A study of Mus musculus with 2 samples.

Results

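The cells described here are those with fewer than 3000 genes at a nonzero value in 2 single-cell RNA libraries of cultured mouse hematopoietic stem cells (HSC), the cells that sustain blood formation. They number 329 of 8708 cells (3.78%, exact 95% Clopper-Pearson interval 3.39 to 4.20%) in the vehicle library and 393 of 9852 cells (3.99%, 3.61 to 4.39%) in the DFO library, 722 of 18560 in all. HSC were sorted as Lineage-, c-Kit+, Sca-1+, CD150+ and CD48- cells from the marrow of 8 pooled C57/B6 mice aged 6 to 8 weeks. Both cultures were kept for 48 h in Myelocult M5300 with stem cell factor (SCF, 100 ng/ml) and Primocin among the supplements. One culture received 10 µM DFO (deferoxamine, an iron chelator) and the other sterile water as vehicle. From each, 20000 live cells were loaded for droplet-based library preparation, in which every captured transcript end carries a molecular barcode, so that counts are molecules rather than reads. Each group is a single library, so the differences carry no p-value and no estimate of the spread between cultures. Intervals treat molecules or cells as independent and cover counting error only.

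A droplet with few genes can hold a small or resting cell, a poorly captured cell, a damaged cell that has lost cytoplasm, or a nucleus. Spliced messenger RNA of the cytoplasm, RNA held in the nucleus such as Malat1, and RNA made inside mitochondria are separate pools, and their proportions are commonly used to describe such droplets. These pools are given below for the cells under 3000 genes, first against the remaining cells and then with DFO against vehicle.

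The limit of 3000 genes chose cells of low depth. The cells under 3000 genes held a median of 5821 molecules (range 2009 to 11473) in the vehicle library against 28291 in the remaining cells, and 5444 (2020 to 10817) against 27549 in the DFO library. Their median gene numbers were 2151 and 2108, against 5135 and 5099. When every cell was thinned to 2000 molecules, the medians were 993 against 1058 genes in the vehicle library and 1036 against 1071 in the DFO library. The low gene number thus went mostly with depth, and at equal depth the name "low-complexity" describes a small difference. The cells contributed 0.738% of the molecules of the vehicle library and 0.766% of those of the DFO library. Of the 24 barcodes that the libraries share, none belonged to cells under 3000 genes in both. No deposited cell had a mitochondrial share above 14.8%, fewer than 912 genes or fewer than 2009 molecules, so cells beyond these values are not analysed here.

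The cells were chosen by their number of genes, a measured value, and the comparison with the remaining cells is therefore a description of what they contain. Molecules were summed over cells and scaled to counts per 1000000 molecules (CPM), and differences are log2((CPM + 1)/(CPM + 1)). In the vehicle library 458 of 8086 genes (5.66%) were 2-fold or more higher in the cells under 3000 genes and 532 (6.58%) as much lower. In the DFO library 615 of 8143 genes (7.55%) were higher and 592 (7.27%) lower. Among 7880 genes measured in both libraries, 401 were higher in the vehicle and 559 in the DFO library, and 526 and 592 lower. Of these, 246 (3.12% of the 7880) were higher in both, which is 61.3% of the 401 and 44.0% of the 559. Lower in both were 363 (4.61%), which is 69.0% of the 526 and 61.3% of the 592. The split depends on scaling. Scaling without mitochondrial, ribosomal protein and rRNA-overlapping genes gave 965 higher and 382 lower genes in the vehicle library and 1134 and 444 in the DFO library. Scaling to the median gene ratio gave 282 and 724, and 288 and 881. The median over all genes was 0.11 in the vehicle and 0.16 in the DFO library, and 0.27 and 0.30 under the first of these scalings.

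**Figure D1:**
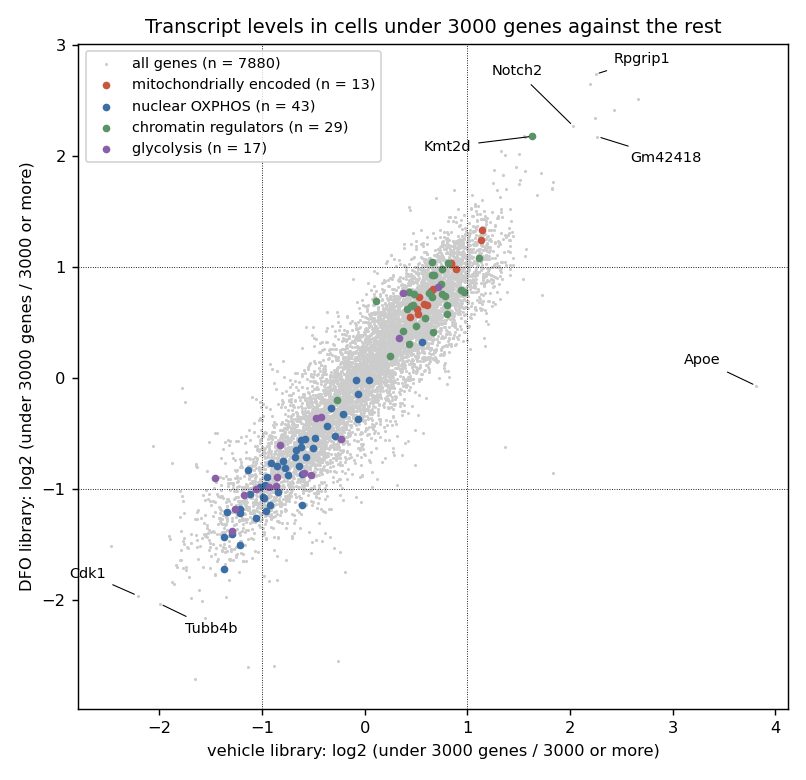
Log2 difference between cells under 3000 genes and the remaining cells, vehicle library on the x axis and DFO library on the y axis, for 7880 genes (grey) with 4 gene lists in colour. Dotted lines mark 2-fold differences; the mitochondrially encoded genes and the chromatin regulators lie mostly above 0, the nuclear OXPHOS and glycolysis genes mostly below, and Apoe is high in the vehicle library alone.

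Gm42418 is annotated as a lincRNA on chromosome 17 (39846958 to 39848788, plus strand, GRCm38) in a segment that carries a ribosomal RNA copy. It stood at 3235 CPM against 671 in the vehicle library (log2 2.27, 95% interval 2.23 to 2.30) and at 2901 against 643 in the DFO library (2.17, 2.14 to 2.21). The other 3 annotations that overlap ribosomal RNA were also higher, AY036118 by 0.97 and 0.87, Lars2 by 1.08 and 0.95 and Gm26917 by 0.63 and 0.53. Reads of ribosomal RNA can be counted in these annotations, and the deposited tables do not separate the sources.

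Rpgrip1, which encodes a partner of the ciliary protein RPGR, was at 335 CPM against 69.6 in the vehicle library and at 410.3 against 60.9 in the DFO library (log2 2.25 and 2.73). It lies on chromosome 14 from 52110704 to 52163546. Its highest value in a cell under 3000 genes was 12 molecules in the vehicle and 10 in the DFO library, so the 644 and 894 molecules came from many cells (249 of 329 and 315 of 393).

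Notch2, a cell-surface receptor of the Notch pathway, was at 111 against 26.4 CPM and at 113 against 22.8 CPM (log2 2.03 and 2.27). Kmt2d, a histone H3 lysine methyltransferase, was at 61.3 against 19.1 CPM and at 82.1 against 17.4 CPM (1.63 and 2.17). These 4 genes were proposed as markers of the cells with earlier results of these data known, and all 4 were past 2-fold in both libraries. Slc39a1, a zinc importer, was at 124 against 26.4 CPM and at 133 against 20.4 CPM (2.19 and 2.64). Abhd2, an alpha/beta hydrolase, differed by 2.24 and 2.34. Acot2, a mitochondrial acyl-CoA thioesterase, differed by 1.55 and 2.17. The glucose transporter gene Slc2a12, Fn3krp and Ttyh2 completed the 10 highest, but each rested on 21 to 32 molecules per library in these cells. Abhd2 (9.22 and 8.90 CPM), Acot2 (6.95 and 5.83 CPM), Slc2a12, Fn3krp and Ttyh2 were under 10 CPM in the remaining cells. Genes had to reach 10 CPM in either group of cells. These genes did so only in the cells under 3000 genes, where they are high, and this favours large differences. The 10 were ranked by the mean log2 of both libraries among genes past 2-fold the same way in both. In the vehicle library alone Apoe and Lgals3 (3.81 each), F13a1 (3.48) and Ctss (2.54) were also among the highest, and these are described with the DFO comparison below.

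Among the 10 lowest genes by the same rule was Cdk1, the kinase that drives entry into mitosis, at 54.5 CPM against 256 in the vehicle library and at 65.6 against 259 in the DFO library (log2 -2.21 and -1.96). Tubb4b, a beta-tubulin, was at 190.1 against 760.3 CPM and at 202 against 833 CPM (-1.99 and -2.04). Cdc20, the activator of the anaphase-promoting complex, differed by -1.87 and -1.84, and Prmt1, the main asymmetric arginine methyltransferase, by -1.85 and -1.86. Psmc4, an ATPase of the proteasome base, was at 63.4 against 207 CPM and at 60.1 against 241 CPM (-1.69 and -1.98). Asns, asparagine synthetase, was at 7.79 against 47.8 CPM and at 18.4 against 54.4 CPM, on 15 and 40 molecules in these cells. Mecr, an enzyme of mitochondrial fatty acid synthesis, Apip, an enzyme of methionine salvage, and Rpp40, a subunit of ribonuclease P, differed by -1.56 to -2.71 on 9 to 34 molecules. Gla, the lysosomal alpha-galactosidase, had 9 molecules in the vehicle and 2 in the DFO library in these cells (DFO log2 interval -6.58 to -1.68). Rpp40 and Gla were under 10 CPM in these cells and entered only through the remaining cells, as did Asns in the vehicle library.

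RNA made in mitochondria took a larger share of these cells. The median mitochondrial share was 6.18% in the vehicle library (lowest 0.118%, highest 14.6%) against 3.85% in the remaining cells. With DFO it was 7.65% (lowest 0.0892%, highest 14.7%) against 4.37%. The ranges of the groups overlapped in both libraries. All 13 mitochondrially encoded genes were higher, with medians of 0.65 and 0.78 and a range of 0.44 to 1.14 in the vehicle and 0.54 to 1.33 in the DFO library. Past 2-fold were 2 in the vehicle library and 4 in the DFO library, against 5.66% and 7.55% of all genes. mt-Nd1, a subunit of complex I, was at 2949 against 1336 CPM and at 4085 against 1629 CPM, the largest difference of the 13 in both libraries. mt-Atp6, a subunit of ATP synthase and the most abundant of the 13, was at 15555 against 10442 CPM and at 19949 against 12568 CPM.

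**Figure D2:**
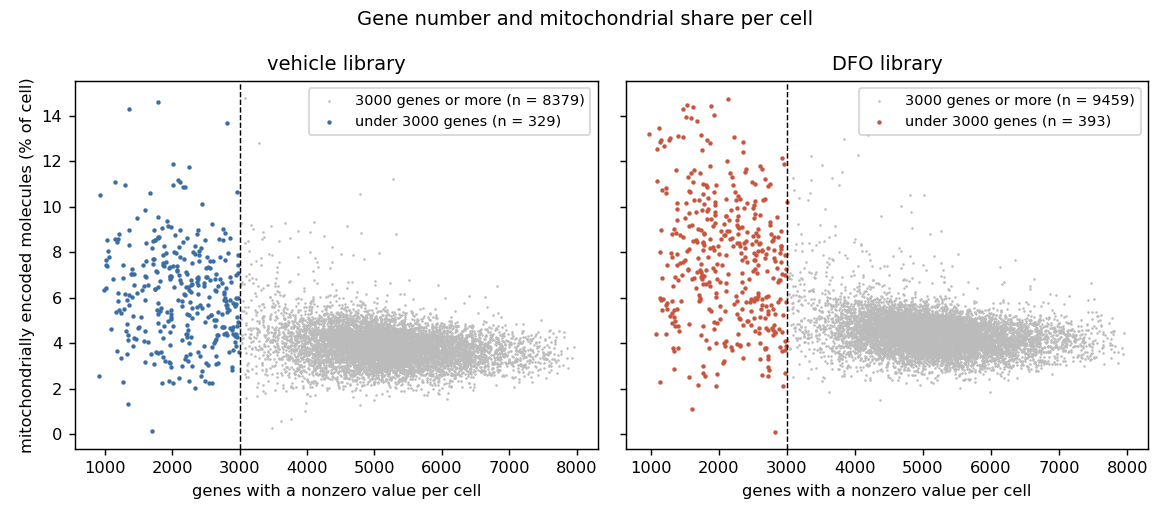
Genes per cell (x axis) against the share of molecules from mitochondrially encoded genes (y axis, percent), 1 point per cell, with cells under 3000 genes in colour and the remaining cells in grey. Medians are 6.18% and 7.65% in the coloured cells and 3.85% and 4.37% in the grey cells, and the groups overlap.

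Nuclear genes for the same respiratory chain were lower. Of 43 nuclear genes of oxidative phosphorylation (OXPHOS), 11 were lower by 2-fold or more in the vehicle library and 15 in the DFO library, and none was higher by as much. Over all genes 6.58% and 7.27% were lower by 2-fold. Their medians were -0.77 and -0.82, and their summed level was 11039.8 against 17541 CPM and 10394 against 17415 CPM. Ndufv1, a core subunit of complex I, was at 46.8 against 123 CPM and at 35.8 against 120.5 CPM, and Uqcrc1, a core subunit of complex III, differed by -1.21 and -1.51. Ndufa4, at 894 against 1694 CPM and 805 against 1788 CPM, is among the abundant members. Cox8a, a subunit of cytochrome c oxidase, differed little, with 1138 against 1209 CPM and 1139.97 against 1158 CPM. Ndufa6 was higher by 0.56 and 0.32, 1 of 2 members above 0 in the vehicle library and the 1 above 0 in the DFO library.

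Genes of glycolysis, ribosome biogenesis and chaperones were also mostly lower. Of 18 glycolysis genes measured in the vehicle library, 6 were lower by 2-fold or more and none higher (median -0.84), and 4 of 17 in the DFO library (median -0.87), against 6.58% and 7.27% of all genes. Aldoa, aldolase A, was at 479.5 against 1178 CPM and at 400.2 against 1043 CPM. Hk2, hexokinase 2, went the other way, at 69.6 against 42.1 CPM and 82.6 against 46.6 CPM. The 24 genes of ribosome biogenesis had medians of -0.68 and -0.59, with 3 and 2 lower by 2-fold or more. The 2 of 24 in the DFO library are near the 7.27% of all genes. The lower genes include Bop1 and, in the vehicle library, Ncl, nucleolin, at 861 against 1803 CPM. Ncl in the DFO library was at 1031 against 2013 CPM. Of 8 measured heat shock and chaperone genes, 3 were lower by 2-fold or more in each library (medians -0.52 and -0.57). This list also includes Hspd1 and Hspe1, chaperones of mitochondria. Hsp90aa1 was at 719.5 against 1830.5 CPM and at 835 against 2089.9 CPM, while Hsp90ab1 was at 3708 against 3685 CPM and 3606 against 3864 CPM.

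The 25 genes of endoplasmic reticulum folding and translocation had medians of -0.51 and -0.46 but held both directions. Hspa5, the chaperone BiP, differed by -1.10 and -1.09, and Sec61a1, the channel subunit, was higher by 1.17 and 1.09. The 20 actin and tubulin genes had medians of -0.42 and -0.45, with 5 and 7 lower by 2-fold or more, against 6.58% and 7.27% of all genes. Above 0 were 6 and 5 of the 20, among them Actb, beta-actin, at 11891 against 6332 CPM and at 14045 against 5932 CPM. Translation factors had medians near 0 (-0.02 and -0.14), with Eif4a1 at a log2 of -1.02 and -1.07 and Pabpc1, poly(A)-binding protein, higher by 0.92 and 0.96.

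Transcripts of cytosolic ribosomal proteins were kept. None of 79 measured was past 2-fold in either library, and the medians were 0.20 and 0.13. Their summed share was 27.3% of molecules against 23.7% in the vehicle library and 24.5% against 22.4% in the DFO library. The DFO median was -0.03 under scaling to the median gene ratio and -0.04 against cells with 3000 to under 4000 genes. The 81 symbols of this list were taken by pattern and include Rps19bp1 and Rpl7l1, which are not core ribosomal proteins, and leave out Rplp0 and Rpsa.

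RNA that stays in the nucleus was higher, but by less than Gm42418. Of 7 measured nuclear noncoding RNAs all were above 0, with medians of 0.42 and 0.59. Only 1 was past 2-fold, in the DFO library, where 7.55% of all genes were higher by 2-fold. Against cells with 3000 to under 4000 genes the vehicle median was 0.18. Noncoding annotations of other kinds lay near the list. The medians were 0.43 and 0.51 for 47 lincRNAs, Malat1 included, and 0.54 and 0.45 for 27 antisense transcripts. Protein-coding genes had medians of 0.09 and 0.13. Malat1, the abundant RNA of nuclear speckles, was at 2211 against 1824 CPM in the vehicle library (log2 0.28, interval 0.23 to 0.32) and at 2011 against 1723 CPM in the DFO library (0.22, 0.18 to 0.27). Its median share per cell was 0.159% against 0.166% and 0.154% against 0.155%, so the typical cell did not hold more of it. Neat1, the scaffold of paraspeckles, was higher by 0.85 and 0.89, and Tug1 by 0.97 and 1.17. Splicing transcripts known for detained introns had medians of 0.17 and 0.14, close to the medians of all genes, and Srsf7 and Srsf3 among them differed by -1.34 and -1.08 in the vehicle library.

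Transcripts of chromatin regulators, most of which are long, were mostly above 0. In the vehicle library 29 of 30 were above 0 and 2 past 2-fold (median 0.65), and in the DFO library 28 of 29 and 4 (median 0.74). Those past 2-fold include Kmt2d in both libraries, a marker proposed with earlier results of these data known. Against 5.66% and 7.55% of all genes higher by 2-fold, the count in the vehicle library was near the background, and the list is described by its median beside 0.11 and 0.16 over all genes. Kmt2a, a methyltransferase of the same family as Kmt2d, was at 151 against 69.0 CPM and at 139 against 65.4 CPM. Smarca4, the ATPase of the SWI/SNF complex, was the exception, at 83.6 against 101 CPM and 83.1 against 95.5 CPM.

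Transcript length went with the difference across all genes. For 7814 of 7880 genes (99.2%) with an annotated transcript, Spearman's rho between the log2 difference and the length of the longest transcript was 0.51 in the vehicle and 0.54 in the DFO library. This is a correlation across genes, which share libraries and cells and are not independent replicates. Within 5 equal groups of genes by expression it ranged from 0.21 to 0.51 and from 0.26 to 0.55. The genes higher in both libraries had a median length of 5410.5 bases, those lower in both 1875 bases, and all genes 3392 bases. From the shortest to the longest of 10 equal groups of genes the median difference went from -0.39 to 0.60 in the vehicle library and from -0.46 to 0.67 in the DFO library. Gene length had a rho of 0.36 and 0.38, and the longest run of A in the transcript 0.27 and 0.28. Intron number had 0.19 and 0.22, and GC content -0.03 and -0.04. Expression, taken as the mean CPM of the remaining cells, had a rho of -0.46 and -0.44. That level is also the denominator of the log2 difference, so a negative rho is partly built in.

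**Figure D3:**
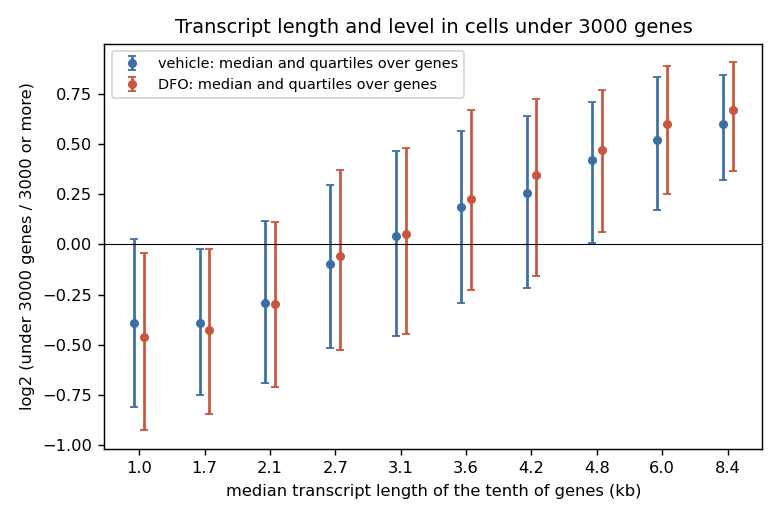
Log2 difference between cells under 3000 genes and the remaining cells (y axis) for 10 equal groups of genes by transcript length (x axis, median of each group in kilobases); points are medians over genes and bars the quartiles. The vehicle medians go from -0.39 to 0.60 and the DFO medians from -0.46 to 0.67.

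Cell-cycle transcripts were lower than in all remaining cells pooled. Of 28 G2/M genes 9 were lower by 2-fold or more in the vehicle and 8 in the DFO library (medians -0.67 and -0.78), and of 28 S phase genes 9 and 3 (medians -0.70 and -0.64), against 6.58% and 7.27% of all genes. With 3 of 28 the S phase count in the DFO library was not far from that share. Mki67 was not among them, at 335 against 302 CPM and 287 against 285 CPM. Against cells with 3000 to under 4000 genes alone, the G2/M medians turned to 0.73 and 0.57. The summed G2/M level was 3379 to 3728 CPM in the bins under 3000 genes of the vehicle library, 2628 CPM at 3500 to under 4000 genes and 7364 CPM at 6000 genes or more. In the DFO library it was 2614 to 4085 CPM, then 3149.9 and 7302 CPM. The G2/M level of the cells under 3000 genes (3576 and 3630.1 CPM) lay below that of each bin from 4000 genes up and above that at 3500 to under 4000 genes. Summed S phase genes were at 2012 to 2074 CPM in the vehicle bins under 3000 genes, at 2112 CPM at 3000 to under 3500 genes and highest, at 3580 CPM, at 4000 to under 5000 genes. With DFO these levels were 2377 to 2619, 2526 and 3855 CPM.

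The composition changed over the whole range of gene number. Gm42418 went from 4419.97 CPM in vehicle cells under 1500 genes to 2499 CPM at 2500 to under 3000 genes, 1457 CPM at 3000 to under 3500 genes and 549 CPM at 6000 or more. With DFO the same steps were 3890.4, 2407, 1441 and 549 CPM. For Gm42418 the largest fold change between neighbouring bins fell at 3000 genes in both libraries. The median depth went there from 8150 to 11530 molecules with vehicle and from 7862 to 11153 with DFO, and its part in the result was not tested. Nuclear OXPHOS genes went from 9210.4 to 12065, 14839 and 17559 CPM in the vehicle library, and from 9576 to 11165, 14632 and 17162 CPM in the DFO library. Cells just inside and just outside the limit can be compared where their depth overlaps, at 8000 to under 11000 molecules. This window held 50 and 73 vehicle cells and 52 and 82 DFO cells. Depth still differed within it, with medians of 9014 and 10242 molecules for vehicle and 8701.5 and 10028.5 for DFO. None of the 4 markers was higher there inside the limit in the vehicle library, and Rpgrip1 and Kmt2d were in the DFO library. Gm42418 was at 1989 CPM inside and 2100.1 CPM outside for vehicle, and at 2036 and 2037 CPM in the DFO library. Rpgrip1 was at 167 and 234 CPM with vehicle and at 284 and 273 CPM with DFO, Notch2 at 85.6 and 106 CPM and at 63.3 and 93.3 CPM, and Kmt2d at 30.7 and 70.6 CPM and at 69.8 and 49.1 CPM. Malat1 was at 2819 and 2834 CPM and at 1600 and 2052 CPM. OXPHOS genes were at 12355 and 12206 CPM, and at 12728 and 12569.6 CPM. The median mitochondrial shares were 5.19% and 5.35%, and 6.73% and 5.92%. Ribosomal protein genes took 28.1% and 25.1%, and 25.1% and 22.9%.

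**Figure D4:**
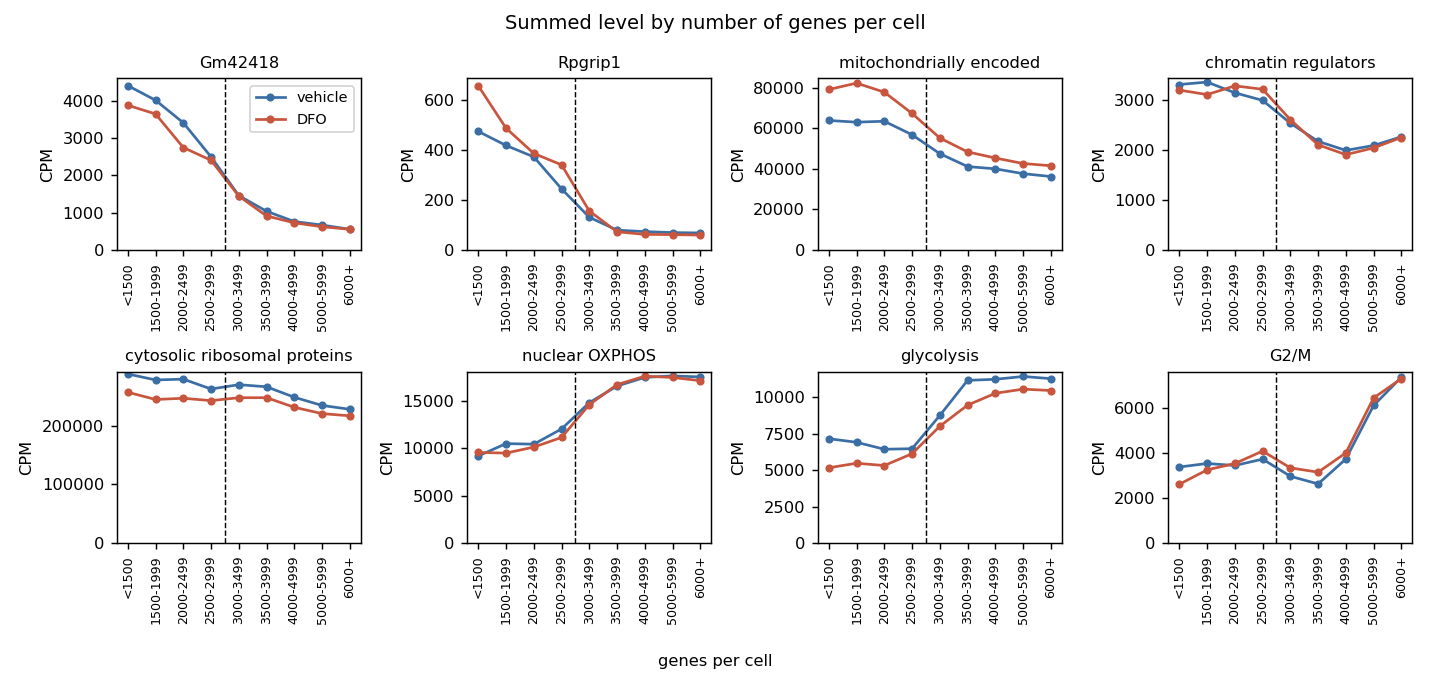
Summed level (y axis, CPM) of 2 genes and 6 gene lists in cells binned by genes per cell (x axis), vehicle in blue and DFO in red; the dashed line marks 3000 genes. Gm42418 goes from 4419.97 and 3890.4 CPM to 549 CPM in both libraries, with its largest fold change between neighbouring bins at the line, and G2/M transcripts dip near the line.

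Choosing cells by complexity at equal depth gave another set of cells and fewer genes past 2-fold. When as many cells were taken for the fewest genes after thinning, 129 of 329 (39.2%) and 127 of 393 (32.3%) were cells under 3000 genes. Against the rest only 40 genes were higher and 140 lower in the vehicle library, and 22 and 89 in the DFO library. The median of chromatin regulators was 0.04 and -0.03, that of nuclear OXPHOS genes -0.11 and -0.05, and that of mitochondrially encoded genes 0.30 and 0.26. The median of the 4 marker genes was 0.71 in both libraries. The G2/M medians were larger in size under this choice, -1.28 and -1.11.

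Transcripts of blood lineages went in both directions. Of 22 genes known from HSC, 17 were measured in the vehicle and 18 in the DFO library, with medians of 0.51 and 0.61. Only Hlf was past 2-fold, in the DFO library, where 7.55% of all genes were higher by 2-fold. Hlf, a stem cell transcription factor, was at 125 against 62.4 CPM and at 166 against 70.8 CPM, and Meis1 at 237 against 159 CPM and 237 against 154 CPM. Procr, the surface receptor EPCR, was at 5.195 against 5.17 CPM on 10 molecules and at 10.1 against 5.72 CPM on 22. Pf4, a platelet chemokine, was at 776 against 1452 CPM in the vehicle library and at 421 against 594 CPM in the DFO library (log2 -0.90 and -0.49). One vehicle cell held 254 of the 1493 Pf4 molecules. The medians of the megakaryocyte markers were -0.16 over 13 and 0.05 over 10 measured genes, and their sign changed with scaling or weighting of cells. Itgb3, integrin beta 3, was at 137 against 75.1 CPM and 118 against 54.9 CPM. Hbb-bt, a beta-globin, was at 149.6 against 521 CPM and 157 against 491 CPM. Mpo, the neutrophil peroxidase, had 2 and 6 molecules.

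Markers of other cell types were scarce. Summed levels in cells under 3000 genes were 90.4 and 54.6 CPM for 5 lymphoid genes in the tables, 64.4 and 44.5 CPM for 7 of macrophages or dendritic cells, and 94.0 and 76.6 CPM for 9 of stromal or endothelial cells. They were 19.2 and 9.64 CPM for mast cells or basophils and 4.16 and 2.75 CPM for eosinophils. Neutrophil-monocyte genes summed to 475 CPM against 269 CPM in the vehicle library and to 236 against 249 CPM in the DFO library. Without 1 vehicle cell described below, their vehicle median went from 0.26 to -0.20 over 3 measured genes.

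Over all genes the median was 0.11 with quartiles of -0.41 and 0.57 in the vehicle library. In the DFO library it was 0.16 with quartiles of -0.41 and 0.63. Among the remaining lists, iron-handling genes were mostly above 0. Of 14 measured, 13 and 12 were above 0 and none past 2-fold (medians 0.44 and 0.37), and Ftl1, the ferritin light chain, was at 3936 against 2579.7 CPM and 4199.6 against 2612 CPM. Of p53 targets 9 of 11 and 7 of 10 were above 0, and 2 and 1 were higher by 2-fold or more (medians 0.68 and 0.36), with Cdkn1a at 63.9 against 48.7 CPM and 50.0 against 50.6 CPM. Of 17 apoptosis genes 1 was higher and 1 lower in each library (medians 0.25 and 0.16), the higher in the vehicle library being Xiap and the lower Cycs. Over all genes 5.66% and 7.55% were higher by 2-fold and 6.58% and 7.27% lower, so the apoptosis counts are near the background. The p53 counts rest on few genes. The ATF4 targets had medians of 0.16 and 0.21 but means of -0.12 and -0.000634, with Phgdh, the first enzyme of serine synthesis, at a log2 of -1.62 and -1.63. Cholesterol synthesis genes had medians of -0.13 and -0.05, immediate early genes 0.06 and 0.20, and replication histones -0.09 and 0.08. Erythroid genes, 4 and 3 measured, had medians of -0.15 and -0.47.

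Clustering divided the cells under 3000 genes into 4 subgroups, which differ by construction in the genes that define them. Mitochondrially encoded, ribosomal protein, S phase and G2/M genes were not used to form them. Gm42418, nuclear OXPHOS, glycolysis and lineage genes were not left out, so differences between subgroups in these genes are not independent of the clustering. Subgroup 0 held 64.4% of the vehicle and 67.2% of the DFO cells and was left unnamed. Its leading genes were Nhsl2, Ablim1 and Cep55. Subgroup 1 (16.4% and 15.01%) is megakaryocyte-like, with 14 of the megakaryocyte markers detected and Cavin2 among its leading genes after Ehd3. Subgroup 2 (10.3% and 11.2%) was led by Apoe, Ctss and Lyz2, with Ly6a also among its leading genes, and was left unnamed. One vehicle cell of this subgroup, described with the DFO comparison, held 503 Apoe, 28 Ctss and 345 Lyz2 molecules. In the DFO cells of subgroup 2 Apoe was at 19.2 CPM, against 1994 CPM in its vehicle cells and 15.5 CPM in the remaining DFO cells. Subgroup 3 (8.81% and 6.62%) is megakaryocyte-like, with Gp5, Treml1 and Gp9, all of platelet membranes, among its leading genes. Against the other subgroups its 16 detected megakaryocyte markers had a mean log2 of 2.20. Its 6 detected erythroid markers had a mean of 1.99 and its 3 detected lymphoid markers 1.26. No erythroid or lymphoid marker was among its leading genes. At a coarser resolution or with more neighbours there were 3 subgroups and at a finer one 8.

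The subgroups fell into 2 kinds by composition. Subgroups 0 and 1 together made up 80.9% of the vehicle cells (266 of 329, interval 76.2 to 85.0%). In the DFO library they made up 82.2% (323 of 393, interval 78.0 to 85.8%). Their median mitochondrial share was 6.50% and 6.49% in the vehicle and 8.16% and 7.98% in the DFO library. Gm42418 was at 3719 and 4332 CPM in the vehicle and 3399 and 3428 CPM in the DFO library, and OXPHOS genes between 8776 and 9758 CPM. Subgroups 2 and 3 were nearer the remaining cells. Their mitochondrial shares were 4.29% and 5.24% in the vehicle and 5.07% and 4.64% in the DFO library. Gm42418 was between 1048 and 1323 CPM and OXPHOS genes between 15124 and 16404 CPM, against 17541 and 17415 CPM in cells with 3000 genes or more. Their median depths were also higher, 7819.5 and 6907 molecules in the vehicle library against 5651 and 5040.5 in subgroups 0 and 1. With DFO they were 7263 and 7141.5 against 4899.5 and 5762. Without subgroups 2 and 3 the vehicle counts were 838 higher and 1016 lower genes, and the DFO counts 1029 and 1051.

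**Figure D5:**
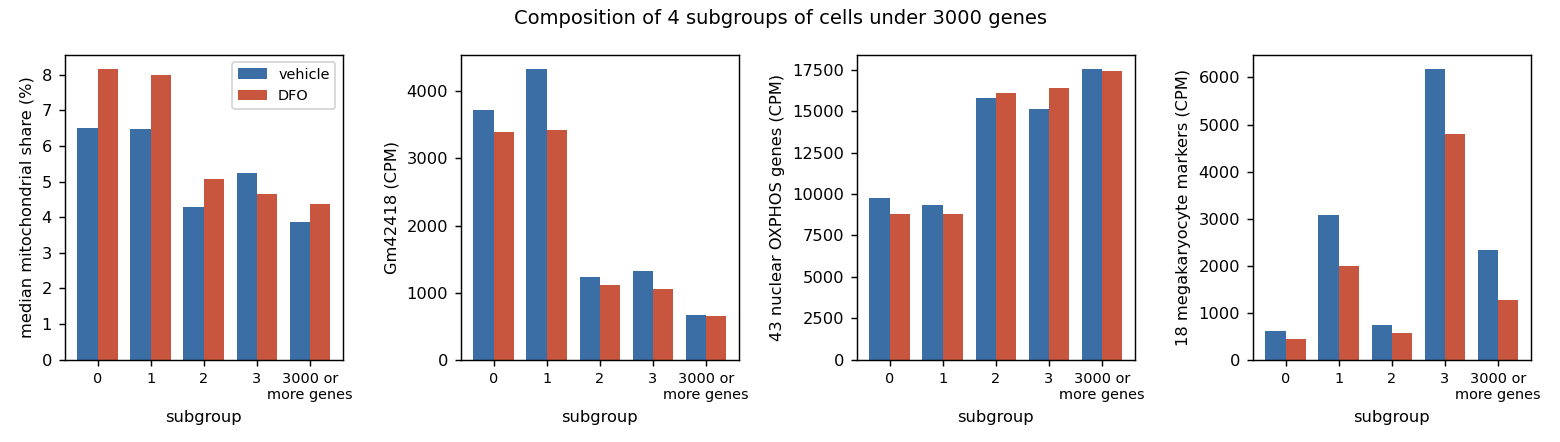
Bars give, for 4 subgroups of cells under 3000 genes and for cells with 3000 genes or more, the median mitochondrial share (percent) and the levels of Gm42418, 43 nuclear OXPHOS genes and 18 megakaryocyte markers (CPM), vehicle in blue and DFO in red. Subgroups 0 and 1 hold more mitochondrial RNA and Gm42418 and less OXPHOS RNA than subgroups 2 and 3, whatever their megakaryocyte level.

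Within the cells under 3000 genes, mitochondrial share and Gm42418 share went together weakly, with Spearman's rho of 0.20 over 329 vehicle and 0.28 over 393 DFO cells. The rho of mitochondrial share with OXPHOS share was -0.25 and -0.30, and that of depth with Gm42418 share -0.37 and -0.40. These are descriptions of shares with 1 denominator, and the cells of a library share its preparation.

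The study asks what iron chelation does to cultured HSC, and in the cells under 3000 genes the mitochondrial share was higher in the DFO library. A mitochondrial share above 10% was found in 4.86% of the vehicle cells (16 of 329, interval 2.80 to 7.78%). In the DFO library it was found in 20.1% (79 of 393, interval 16.3 to 24.4%). Among the remaining cells it was found in 4 of 8379 (0.0477%) and 17 of 9459 (0.180%). Above 7.5%, a limit chosen after the values were seen, were 25.2% of the vehicle and 52.2% of the DFO cells under 3000 genes. All 13 mitochondrially encoded genes were higher in DFO (median 0.25, range 0.07 to 0.74). In the remaining cells 12 of 13 were higher (median 0.15, range -0.06 to 0.54). For each of the 13 genes the log2 value was larger in the cells under 3000 genes, and this difference between the groups of cells was not tested. Without cells above 10% the median was 0.17, and mt-Nd6 was then at a log2 of -0.05.

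mt-Nd3, a complex I subunit, was at 1296 CPM with vehicle and at 2157 CPM with DFO (log2 0.74, interval 0.67 to 0.81), and at 724 and 1055 CPM in the remaining cells (0.54). mt-Nd1 was at 2949 and 4085 CPM (0.47, remaining cells 0.29), mt-Nd4 at 4048 and 5229 CPM (0.37, remaining 0.19), and mt-Atp6 at 15555 and 19949 CPM (0.36, remaining 0.27). mt-Nd5 differed least among the abundant ones, at 799 and 861 CPM (0.11, remaining 0.00095). The higher mitochondrial level was seen in each gene-number bin, from 63745 and 79042 CPM under 1500 genes to 56686 and 67194 CPM at 2500 to under 3000 genes. It was seen in subgroups 0, 1 and 2 by median share, and not in subgroup 3 (5.24% and 4.64%, 29 and 26 cells).

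Few genes differed by 2-fold, and none of the 13 mitochondrially encoded genes did. At 20 CPM or more in either library, 7 of 6267 genes (0.112%) were higher in DFO and 24 (0.383%) lower. In the remaining cells 0 of 5575 (0%) were higher and 2 (0.0359%) lower, with no test in either case. The spread of all log2 values was wider in the cells under 3000 genes (SD 0.31 over genes) than in the remaining cells (0.12), where the sums held 259014078 and 282147012 molecules rather than 1924860 and 2179005. The median over all genes was 0.06.

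Of the 10 lowest genes, 6 had most of their vehicle molecules in 1 cell, which was singled out after its values were seen. This cell had 10383 molecules, 2590 genes and a mitochondrial share of 2.25%. It held 503 of the 567 Apoe molecules of the vehicle cells under 3000 genes, against 32 molecules in the DFO cells. It also held 345 of 454 molecules of Lyz2, the lysozyme of myeloid cells, 76 of 81 of Lgals3, 50 of 57 of F13a1, 28 of 39 of Ctss and 43 of 82 of Tyrobp. Trem2, Ms4a6c, Ccr2 and Fcgr3, genes of monocytes and macrophages, were among its leading genes. The DFO cells had 1 molecule of Lgals3 (log2 interval -11.84 to -4.0) and 3 of F13a1 (-6.75 to -2.81). Without this cell 14 genes were lower rather than 24 and 9 higher rather than 7. Plin2, a lipid droplet protein, and Gsn, gelsolin, were also among the 10 lowest, and the cell held 20 of 59 and 12 of 40 of their molecules. Tnfaip8l2 and Gm15261, an antisense transcript, differed by -2.03 and -1.52 with 1 and 0 molecules in that cell. They went from 42 to 10 and from 44 to 16 molecules. Except for Lyz2, the 10 lowest genes were under 20 CPM with DFO and entered the comparison only through the vehicle library.

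Of the 10 highest genes, Cish, a SOCS-family inhibitor of cytokine receptor signalling, rested on the most molecules. It was at 44.7 CPM with vehicle (86 molecules) and at 91.3 CPM with DFO (199 molecules), log2 1.02 with an interval of 0.66 to 1.41, and 0.27 in the remaining cells. Prmt5, the main symmetric arginine methyltransferase, was at 26.0 and 52.8 CPM (1.00, remaining cells 0.08), and Esco2, a cohesin acetyltransferase of S phase, at 16.6 and 35.3 CPM (1.04, remaining 0.09). Morc2a was at 18.2 and 42.2 CPM (1.17, remaining 0.11). Foxred2, Ssh1, Ppp1r8, Ttc4, Slc29a1 and Vps4a, with 15 to 37 molecules in vehicle cells, differed by 0.98 to 1.36. These members were picked as the extremes of 6267 genes on few molecules. Except for Cish and Prmt5, the 10 highest genes were under 20 CPM with vehicle and entered the comparison only through the DFO library. They are high there, and this favours large differences.

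Genes of the treatment and the lineage differed as follows. Tfrc, the transferrin receptor that takes up iron, was at 68.1 CPM with vehicle and at 86.7 CPM with DFO (log2 0.35, interval 0.02 to 0.68), and differed by 0.22 in the remaining cells. The 11 measured iron-handling genes had a median of 0.09 with none past 2-fold, and -0.02 when scaled without mitochondrial, ribosomal protein and rRNA-overlapping genes. Pf4 was at 776 and 421 CPM (-0.88, interval -1.0 to -0.76) and differed by -1.29 in the remaining cells. Of 10 measured megakaryocyte markers 9 were lower in DFO (median -0.46) and Gp9 was past 2-fold, against 0.383% of all genes lower by 2-fold. In the remaining cells all 11 measured were lower (median -0.54) and 2 past 2-fold, against 0.0359% of all genes. Ly6a, which encodes Sca-1, was at 73.3 and 65.6 CPM (-0.16), against 0.41 in the remaining cells. Its sign turned with the gene limit, with equal weighting of cells and without subgroups 2 and 3, and 1 vehicle cell held 38 of its 141 molecules.

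In the following lists no member was past 2-fold between the libraries. Over all 6267 genes the median was 0.06 and the quartiles -0.13 and 0.23 in the cells under 3000 genes. In the remaining cells they were 0.02, -0.04 and 0.08. The share of all genes above 0 was not computed. In the cells under 3000 genes the nuclear OXPHOS, ribosomal protein and glycolysis medians lay within the quartiles of all genes. S phase genes were higher in 21 of 26 (median 0.30, remaining cells 0.10), with Pcna, the replication clamp, at 30.1 and 52.3 CPM. Ribosome biogenesis genes were higher in 20 of 23 (median 0.24, remaining 0.13). Nuclear OXPHOS genes were lower in 34 of 43 (median -0.08, remaining -0.02), and ribosomal protein genes in 64 of 79 (-0.12, remaining -0.07). Glycolysis genes were lower in 12 of 16 (-0.11, remaining -0.14), and the 4 rRNA-overlapping annotations all lower (-0.20, remaining -0.09), Gm42418 by -0.16. Chromatin regulators (0.07), nuclear noncoding RNAs (0.04), G2/M genes (0.02) and HSC genes (-0.02) lay within 0.1 of 0. Malat1 was at 2211 and 2011 CPM (-0.14). The depth and gene number of the compared cells were close, with medians of 5821 and 5444 molecules and of 2151 and 2108 genes.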

How the data were processed

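Single-cell RNA was measured in 1 vehicle and 1 DFO library. Per the submitters' processing notes, Cell Ranger 3.0.2, FastQC 0.11.9 and Trim Galore 0.6.5 were used with build mm10; a cell filter is not stated there or in the file headers. The authors deposited natural log values per gene and cell, 14366 genes in each table. Back-transformed, each cell summed to at most 27408 and all 44114455 and 49560434 nonzero values came out as whole molecules within 0.05, giving 260938938 and 284326017 molecules. All 18560 cells were used; doublets were not called, since the cells described are the shallowest.

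Molecules were summed per library and group of cells and scaled to CPM with a pseudocount of 1 CPM. Genes entered at 10 CPM or more in either group of cells, or 20 CPM or more in either library for DFO against vehicle, and "past 2-fold" means an absolute log2 of 1 or more. With 1 library per group no test was run. Intervals are exact 95% binomial or Poisson; those of log2 values are for the ratio without pseudocount. In simulated data 198, 199 and 199 of 200 genes changed by a log2 of 1.5 were past 2-fold in the 3 comparisons. Of the unchanged genes 8, 1 and 3 were also past 2-fold. The simulation had Poisson noise only, and its changed genes lay well above the minimum level. It therefore does not cover genes near the minimum or genes with most molecules in 1 cell. Depth was equalised by thinning to 2000 molecules (seed 1). Clustering used 10000 per cell, 2000 variable genes without mitochondrial, ribosomal protein, S phase and G2/M genes, 30 components, 15 neighbours and Leiden resolution 0.5. A subgroup was named from at least 3 markers detected in 5% of its cells and at least 1 among its 10 leading genes that no other list contradicted. Transcripts, lengths and positions came from GENCODE M21 on GRCm38, the longest transcript per symbol. Clustering ran in scanpy 1.11.5 with leidenalg 0.10.2, intervals in scipy 1.17.1, sums in numpy 2.4.6 and figures in matplotlib 3.10.9, under Python 3.11.15.

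The text names the 10 highest and 10 lowest genes of each comparison, the mitochondrially encoded genes, fixed genes (Pf4, Tfrc, Procr, Ly6a, Mpo, Malat1, the 4 markers) and extreme or abundant members of lists. The members and lists were chosen with earlier results of these data known. The marker detection limit, the mitochondrial limits other than 10%, the depth window, the gene-number bins, the groups of genes by expression, GC content and expression as gene properties, and the removal of 1 cell or of subgroups 2 and 3 were chosen after seeing the data. 1 gene of the lists and 1 culture supplement are not reported here.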

Additional observations from a re-analysis of the deposited data

How the results depend on the processing

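No paired analysis was possible because each group is 1 library and no test was run. With limits of 2500 and 3500 genes the share of cells was 2.66% and 5.99% in the vehicle and 2.79% and 5.85% in the DFO library, and with a mitochondrial share of 10% or less it was 3.22% in the DFO library. For cells under 3000 genes against the rest, vehicle library, higher genes numbered 722 (limit 2500), 108 (limit 3500), 77 (pseudocount 10), 126 (minimum 50 CPM), 752 (no minimum), 814 (thinned), 965 (scaling without mitochondrial, ribosomal protein and rRNA-overlapping genes), 282 (median scaling), 40 (fewest genes after thinning) and 838 (without subgroups 2 and 3). Lower genes numbered 888 and 166 at the 2 limits, 279 (pseudocount 10), 354 (minimum 50 CPM), 269 (against 3000 to under 4000 genes), 140 (fewest after thinning) and 1016 (without subgroups 2 and 3). In the DFO library higher genes numbered 142 (limit 3500), 121 (pseudocount 10), 201 (minimum 50 CPM), 941 (thinned), 1134 and 288 (the 2 scalings), 22 (fewest after thinning) and 1029 (without subgroups 2 and 3), and lower genes 131, 321, 89 and 1051 at limit 3500, pseudocount 10, fewest after thinning and without subgroups 2 and 3. For DFO against vehicle, higher genes numbered 63 and 0 at the 2 limits, 11 (mitochondrial share of 10% or less), 13 and 0 (pseudocounts 0.1 and 10), 106, 1 and 296 (minimum 5, 50 and none), 139 (thinned), 13 and 2 (the 2 scalings) and 13 (without subgroups 2 and 3). Lower genes numbered 8 (pseudocount 10), 117, 4 and 445 (minimum 5, 50 and none), 104 (thinned), 53 (scaling without those genes), 13 (equal subgroup shares), 14 (without the Apoe-rich cell) and 11 (without subgroups 2 and 3). The small counts of this comparison thus follow the settings, and on few molecules they carry little weight. Taking the fewest genes after thinning turned the medians of chromatin regulators (DFO, -0.0296), glycolysis (0.0335 and 0.0032) and HSC genes (DFO, -0.0434), and against 3000 to under 4000 genes G2/M turned to 0.73 and 0.57. Between libraries Apoe (0.32) and Ctss (0.46) turned at a limit of 2500 genes and Gsn (0.22) without subgroups 2 and 3. Apoe and Ctss lost there the 1 vehicle cell of 2590 genes that held most of their molecules; the other causes were not tested. Without thinning the median gene numbers were 2151 and 5135 in the vehicle and 2108 and 5099 in the DFO library. A resolution of 1 gave 8 subgroups. Of the remaining values 848 list medians and 905 single-gene values moved little and 379 and 297 moved more, by over 0.1 and 0.25.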

Other observations

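Cells under 3000 genes with a mitochondrial share under 2% numbered 2 in each library, too few for any comparison. One vehicle cell of 4223 molecules and 1695 genes had 5 mitochondrial molecules (0.118%) and neither a Malat1 nor a Gm42418 molecule, which allows a share of up to 0.0710% for each. Its OXPHOS share of 1.89% was above the median of 0.997% in the vehicle cells under 3000 genes. One DFO cell of 7850 molecules and 2824 genes had 7 mitochondrial molecules (0.0892%) but 79 of Malat1 and 11 of Gm42418, with an OXPHOS share of 0.955%. Both cells were chosen after their values were seen.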
